A study of Homo sapiens with 8 samples.

Results

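The mRNAs of 10 genes of the epithelial to mesenchymal transition (EMT) were examined in KYSE850, an established line of human esophageal squamous cell carcinoma (ESCC) cells, with and without KHSRP knockdown. The genes are the transcription factors ZEB1, ZEB2, SNAI1, SNAI2 and TWIST1, the cadherins CDH1, CDH2 and CDH3, the intermediate filament gene VIM and the matrix gene FN1. They were chosen by symbol as a set of standard EMT genes, and every array probe whose RefSeq record carried one of these symbols was kept, which gave 14 of the 42405 non-control probes on the array, whose named probes cover 20245 genes. Each of the 10 genes had at least 1 probe, and ZEB1, ZEB2, TWIST1 and CDH2 each had a pair of probes.

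In an EMT, epithelial cells lose the junctions that hold them together and take on the shape, filaments and motility of mesenchymal cells. The ZEB, SNAIL and TWIST factors are transcriptional repressors and regulators that act through short E-box sequences, and E-cadherin (CDH1) is their best known target. In many carcinomas a rise of these factors goes with less E-cadherin and with more N-cadherin (CDH2), vimentin and fibronectin. P-cadherin (CDH3) is typical of basal cells in stratified epithelia, the tissue from which ESCC arises.

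Total RNA from 4 samples given a control siRNA and from 4 given siRNA against KHSRP was hybridized to 8 one-color Agilent arrays, all from the single line KYSE850. KHSRP is an RNA-binding protein that takes part in splicing, mRNA decay and microRNA maturation. The labels state neither which KHSRP siRNA went onto which array nor whether the samples were separate cultures, so the p-values measure only the spread between these samples, which may be technical. In bulk RNA of this kind, fewer cells of a type and less RNA per cell cannot be told apart.

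The binding sequence of the ZEB and SNAIL factors is known, and those members with upstream sequence on hand were compared for it. CACCTG and its reverse complement CAGGTG, which together cover both strands, were searched in the 250 bases before each annotated start (RefSeq, GRCh38.p14). Of 35116 such windows in the annotation, 17.5% held a match. Windows were on hand for ZEB1, ZEB2, CDH2, VIM and FN1. None was used for CDH1, CDH3, SNAI1, SNAI2 and TWIST1, so the set as a whole was not compared. A match was present in 2 of the 12 windows of these genes, near the share over all windows. Those were 2 of the 7 ZEB1 windows, 1 of them with 2 matches. None of the windows of the other 4 genes held a match. The first ZEB1 window is shown with its match in capitals, whose first base lies 57 bases before the start, and beside it the first CDH2 window and the VIM window, since both genes deviated with the same sign on all 8 arrays below. A match describes letters only, and its absence says nothing of binding outside the window. Whether the windows bear on those deviations was not tested. The windows lie at chr10:31318167-31318416 (plus strand) for ZEB1, chr18:28177131-28177380 (minus strand) for CDH2 and chr10:17227991-17228240 (plus strand) for VIM, each written 5′ to 3′ on the strand of the gene.
ZEB1: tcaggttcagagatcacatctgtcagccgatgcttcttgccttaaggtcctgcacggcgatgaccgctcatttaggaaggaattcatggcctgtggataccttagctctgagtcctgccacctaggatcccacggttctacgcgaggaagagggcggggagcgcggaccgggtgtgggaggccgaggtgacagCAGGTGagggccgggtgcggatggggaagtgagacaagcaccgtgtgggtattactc
CDH2: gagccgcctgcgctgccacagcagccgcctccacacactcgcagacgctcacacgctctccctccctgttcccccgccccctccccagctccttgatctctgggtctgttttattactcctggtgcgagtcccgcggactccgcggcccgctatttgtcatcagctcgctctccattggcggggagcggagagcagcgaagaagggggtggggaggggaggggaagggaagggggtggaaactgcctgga
VIM: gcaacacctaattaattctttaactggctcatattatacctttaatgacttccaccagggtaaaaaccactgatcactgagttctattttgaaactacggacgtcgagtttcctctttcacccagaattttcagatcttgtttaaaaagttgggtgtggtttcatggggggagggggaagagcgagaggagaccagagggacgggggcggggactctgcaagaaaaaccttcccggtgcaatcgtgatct

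Levels are log2 signals relative to the 75th percentile of the same array, so that 0 stands for that percentile, and levels of different probes cannot be set against each other. The 75th percentile signal itself was 87.7 to 117 intensity units, and 45.1% to 49.4% of probes were well above background, with no saturated spot. KHSRP itself was lower on every KHSRP siRNA array. Its brighter probe read 5.81 to 6.39 on the control siRNA arrays and 2.52 to 2.88 on the KHSRP siRNA arrays, a log2 change of -3.37 (SE 0.16, adjusted p = 5.9e-05 by limma). The exact two-sided permutation test gave p = 0.0286, the smallest that 4 arrays against 4 allow. Of the markers of squamous epithelium, 10 of 10 were well above background on all 8 arrays, with a summed linear level of 219 to 624 in controls and 253 to 724 after KHSRP siRNA. Such a sum follows mainly the brightest probes, among them SFN at 7.03 to 8.37 and KRT6A at 4.16 to 7.19. The sums of different cell types cannot be compared with each other. Of the markers of other cells, 8 of 9 for fibroblasts (all but COL1A1) and 5 of 5 for endothelium were not well above background on any array, and their summed levels were 0.410 to 0.696 and 0.168 to 0.313. Of 6 leukocyte markers, CD14 and CD68 were well above background on all 8 arrays, PTPRC and CD3E on some, CSF1R and MS4A1 on none, and the sum was 1.26 to 4.04 in controls and 1.45 to 5.15 after KHSRP siRNA. Most of this sum came from CD68, at -0.43 to 2.10, while the next marker, CD3E, reached -1.77 at most.

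Arrays within a siRNA group were far from alike. After the group means were removed, the first principal component of the 18761 tested probes held 65.1% of the variation. It scored positive on control siRNA arrays 1 and 3 and on KHSRP siRNA arrays 1 and 4, and negative on the other 4 arrays, with scores from -46.5 to 50.9. Several of the EMT genes divided the arrays in the same way, so their levels within each group are given first.

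SNAI2 (Slug), VIM, CDH2 and, at the limit of detection, FN1 were high on the same 4 arrays and low on the other 4. SNAI2 read 1.92, 0.50, 2.94 and 0.11 on control siRNA arrays 1 to 4, and 1.84, 0.50, -0.01 and 2.83 on KHSRP siRNA arrays 1 to 4. Control arrays 1 and 3 and KHSRP siRNA arrays 1 and 4 were thus high and the other 4 low, with a span of 7.06-fold among controls and 7.18-fold among KHSRP siRNA arrays. The groups overlapped almost fully, and the residual SD of SNAI2 stood at percentile 99.3 of all tested probes.

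CDH2 (N-cadherin) showed the same split of arrays in both of its probes. The first, A_33_P3214159, read 2.72, 1.31, 3.74 and 0.74 in controls and 2.25, 1.20, 0.62 and 2.99 after KHSRP siRNA. The second, A_23_P38732, which had a single spot per array, read 1.05, -0.42, 1.73 and -1.64 in controls and 0.55, -0.56, -1.82 and 0.99 after KHSRP siRNA. The highest and lowest arrays differed by 8.70-fold in the first probe and by 11.7-fold in the second. On both, the 4 high arrays were those on which SNAI2 was high, and the groups overlapped.

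VIM (vimentin), the main intermediate filament protein of mesenchymal cells, was brightly expressed throughout, at 2992 to 14210 intensity units. Its levels were 6.18, 5.26, 7.17 and 5.02 on the control siRNA arrays and 6.49, 5.08, 4.97 and 7.03 on the KHSRP siRNA arrays. The span over the 8 arrays was 4.60-fold, again with control arrays 1 and 3 and KHSRP siRNA arrays 1 and 4 on top, and its residual SD stood at percentile 97.4.

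SNAI1 (Snail), in contrast, deviated from its group mean in the direction opposite to VIM on all 8 arrays. It read 0.57, 1.10, 0.12 and 1.39 in controls and 0.70, 1.45, 1.55 and 0.28 after KHSRP siRNA, a span of 2.69-fold. SNAI1 was therefore high on control arrays 2 and 4 and on KHSRP siRNA arrays 2 and 3, where VIM was low. This pattern was noticed after the values were seen and was not tested. Across all tested probes, 12.6% deviated with the same sign as VIM on all 8 arrays and 17.9% with the opposite sign on all 8. The squamous marker sum varied 3.31-fold over the 8 arrays and the leukocyte marker sum, mostly CD68, 4.08-fold. Their part in this variation was not tested.

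**Figure D1:**
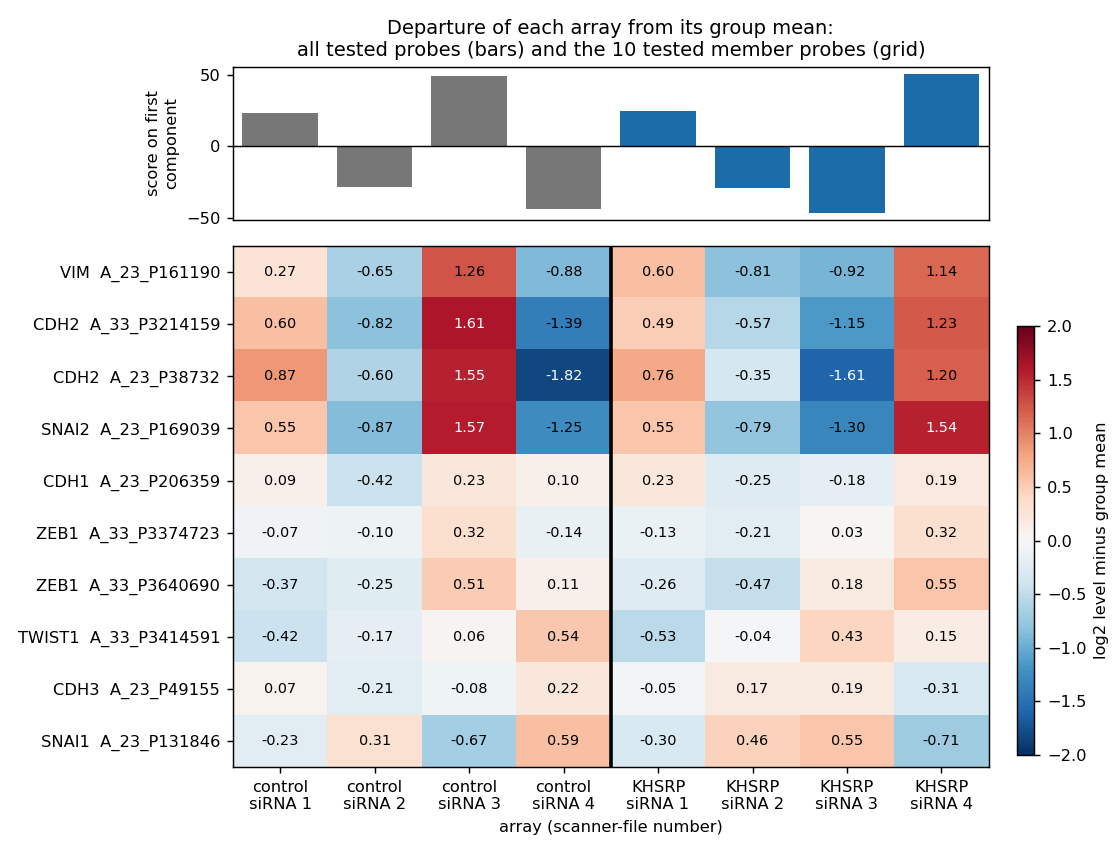
Grid of log2 level minus group mean (color and number) for the 10 tested EMT probes (vertical axis) on the 8 arrays (horizontal axis, control siRNA left of the line), under bars of the score of each array on the first principal component of all tested probes (no unit). VIM, SNAI2 and both CDH2 probes are positive on control arrays 1 and 3 and on KHSRP siRNA arrays 1 and 4, with values up to 1.61, while SNAI1 has the opposite sign on each array.

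The remaining tested members varied less. CDH1 had the sign of VIM on 7 of 8 arrays, the ZEB1 probes on 5 and 4, TWIST1 on 4 and CDH3 on 2. The residual SD was at percentile 39.5 and 77.8 for the ZEB1 probes, 75.7 for TWIST1, 51.6 for CDH1 and 36.0 for CDH3.

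Of the 14 probes, 10 from 8 genes were bright enough to be tested for a change with KHSRP siRNA, and none was called at an adjusted p under 0.05. Over the whole array 5.54% of the tested probes were called, and the count at an unadjusted p under 0.05 was 3 of the 10 member probes against 19.6% of all probes. These 3 were CDH1, CDH3 and the brighter of the ZEB1 probes. Group levels did not overlap for 1 member probe, CDH1, which was higher, against 14.8% of all tested probes (6.09% higher, 8.69% lower). By the methods' t-test 2 of the 10 member probes were under 0.05, against 19.8% of all tested probes, and none after Benjamini-Hochberg adjustment, against 5.76%.

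Arrays could also be compared in pairs, by a replicate number that control and KHSRP siRNA arrays share. The labels do not say that arrays of equal number were prepared together, so a paired design is an assumption. The series matrix, a table of the log2 values of the authors, and the scanner files assign numbers 3 and 4 of the KHSRP siRNA arrays the opposite way. With the numbers of the matrix, KHSRP siRNA array 4 pairs with control array 3 and KHSRP siRNA array 3 with control array 4, and the deviations of the 4 pairs correlated at 0.433 to 0.842. With those of the scanner files the range was -0.672 to 0.521. A block by the matrix numbers called 4 of the 10 member probes, where 30.1% of all tested probes were called, and a block by the scanner numbers called none of them, where 0.832% were. Which numbering is right cannot be settled from the files, and the choice was made with earlier results of these data known. The matrix numbers were preferred for their higher correlations in these same arrays, which by themselves narrow the blocked intervals. The blocked p-values are therefore no independent support for a change. How many of all tested probes moved one way in 4 of 4 pairs was not determined, so such counts below are descriptive. They hold for the matrix numbers only. With the scanner numbers, CDH1, whose groups did not overlap, was the only member that moved one way in 4 of 4 pairs. Control array 4 and KHSRP siRNA array 4 then form a pair, which ran the other way for ZEB1, CDH2, CDH3, SNAI1 and TWIST1.

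CDH1 (E-cadherin), the adhesion molecule of epithelial adherens junctions, was the only tested member whose groups did not overlap. Its probe, averaged over 10 spots per array whose SD was 0.05 to 0.12, read -0.16, -0.67, -0.02 and -0.15 in controls. After KHSRP siRNA it read 0.53, 0.05, 0.12 and 0.49. Every KHSRP siRNA array lay above every control array, the nearest being KHSRP siRNA array 2 and control array 3. The mean was -0.25 ± 0.29 (SD, n = 4) in controls and 0.30 ± 0.25 (SD, n = 4) after KHSRP siRNA, a difference of 0.55 (SE 0.18, 95% interval 0.13 to 0.97, adjusted p = 0.135) or 1.46-fold. With the matrix numbers the differences of the 4 pairs were 0.69, 0.72, 0.51 and 0.27, and the blocked interval narrowed to 0.31 to 0.78 (adjusted p = 0.0116). Over 21 alternatives the change was 0.33 to 0.63 and the adjusted p 0.0116 to 0.384, and only the block by the matrix numbers called it. Within the slides it was 0.70 (slide 1) and 0.39 (slide 2).

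The mean of CDH3 (P-cadherin) was also higher after KHSRP siRNA, short of the threshold without a block. It read 2.99, 2.71, 2.84 and 3.14 in controls and 3.37, 3.59, 3.60 and 3.11 after KHSRP siRNA. KHSRP siRNA array 4 lay just under control array 4, and the other 3 KHSRP siRNA arrays lay above all controls. The difference was 0.50 (SE 0.15, 95% interval 0.15 to 0.85, adjusted p = 0.108), and in the matrix-numbered pairs it was 0.38, 0.89, 0.27 and 0.46 (blocked adjusted p = 0.0254). The values within the slides were 0.63 and 0.37.

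For CDH2 the intervals of the difference were wide. The difference was -0.36 (95% interval -2.03 to 1.30, adjusted p = 0.869) for A_33_P3214159 and -0.39 (95% interval -2.28 to 1.50, adjusted p = 0.878) for A_23_P38732. In the matrix-numbered pairs CDH2 was lower after KHSRP siRNA in 4 of 4 pairs with both probes, with differences of -0.47, -0.11, -0.75 and -0.12 for the first and -0.50, -0.14, -0.74 and -0.18 for the second. The blocked adjusted p was 0.0803 and 0.0564, so neither probe was called there either.

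Among the transcription factors, the mean of ZEB1 was lower after KHSRP siRNA with both probes, short of the threshold without a block. The brighter probe, A_33_P3374723, read 1.36, 1.33, 1.75 and 1.29 in controls and 0.93, 0.85, 1.08 and 1.38 after KHSRP siRNA. The other, A_33_P3640690, read -0.83, -0.70, 0.06 and -0.35 in controls and -1.08, -1.29, -0.64 and -0.28 after KHSRP siRNA. The groups overlapped in both probes, in the brighter one through KHSRP siRNA array 4, which lay above 3 of the 4 controls. The difference was -0.37 (SE 0.16, 95% interval -0.74 to -0.01, adjusted p = 0.242) for the brighter probe and -0.37 (SE 0.27, 95% interval -0.99 to 0.24, adjusted p = 0.530) for the other. In the matrix-numbered pairs ZEB1 was lower in 4 of 4 pairs with each probe, with differences of -0.43, -0.49, -0.38 and -0.20 and of -0.26, -0.59, -0.33 and -0.30. The blocked adjusted p was 0.0161 and 0.0214.

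SNAI1 differed by 0.20 (SE 0.36, 95% interval -0.62 to 1.02, adjusted p = 0.849) and SNAI2 by -0.08 (SE 0.78, 95% interval -1.84 to 1.69, adjusted p = 0.980). In the matrix-numbered pairs SNAI1 was higher in 4 of 4, by 0.13, 0.36, 0.16 and 0.16 (blocked adjusted p = 0.0784). SNAI2 differed there by -0.08, 0.0034, -0.10 and -0.13, with a blocked interval of -0.23 to 0.08. The brighter TWIST1 probe, a single spot per array, read -2.04, -1.79, -1.56 and -1.08 in controls and -2.01, -1.52, -1.05 and -1.33 after KHSRP siRNA. The TWIST1 groups overlapped, and their difference was 0.14 (SE 0.26, 95% interval -0.45 to 0.73, adjusted p = 0.856). In the matrix-numbered pairs TWIST1 was higher in 4 of 4, by 0.029, 0.27, 0.23 and 0.026 (blocked adjusted p = 0.214).

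VIM differed by -0.02 (SE 0.60, 95% interval -1.39 to 1.36, adjusted p = 0.994), an interval that spans 0.381-fold to 2.57-fold. The pair differences were 0.31, -0.18, -0.14 and -0.06, and the blocked interval was -0.27 to 0.23. The sign turned to positive under other scalings of the arrays (0.0039 when the percentile was taken over detected probes).

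**Figure D2:**
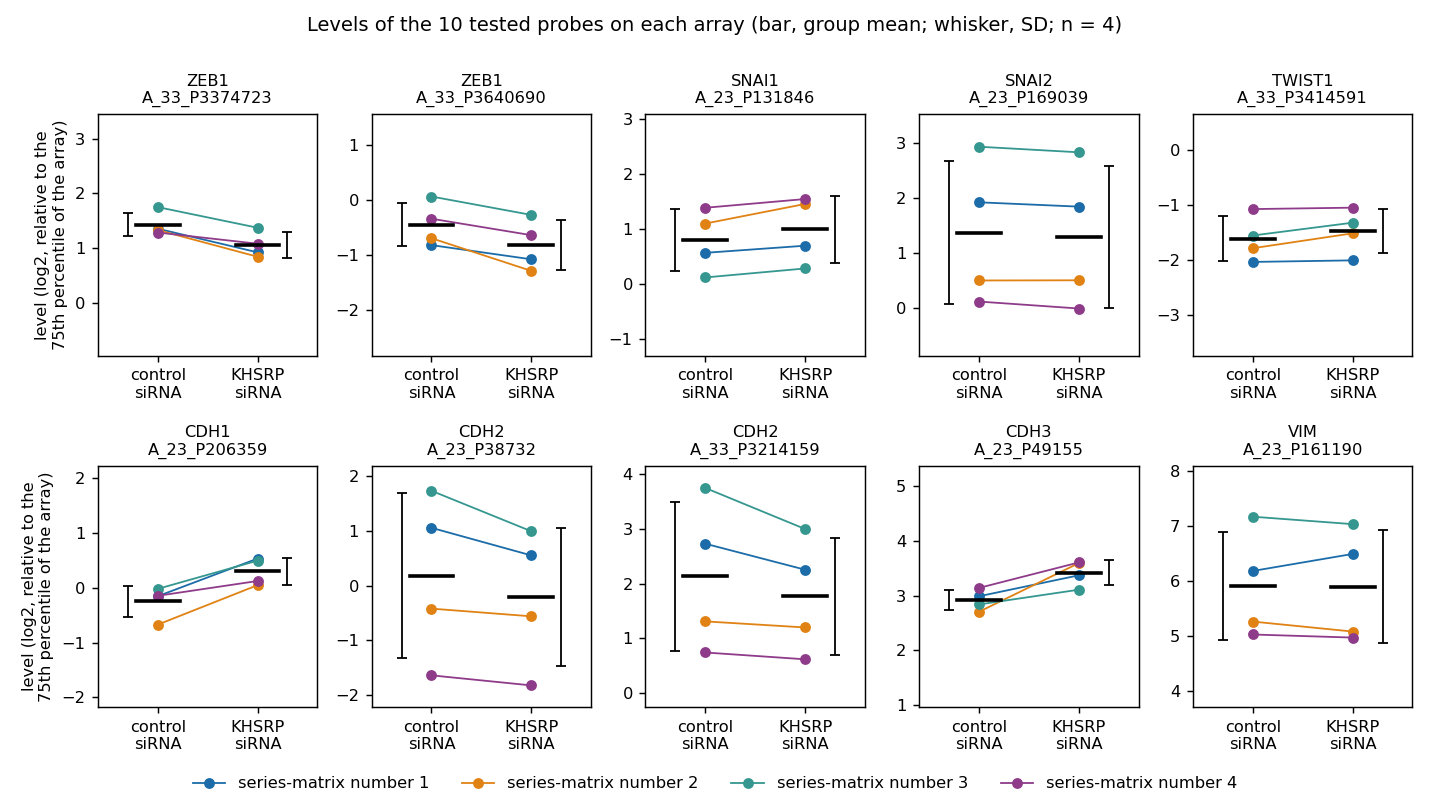
Level on each array (vertical axes, log2 relative to the 75th percentile of the array; every panel spans the same number of log2 units) of the 10 tested probes with control and KHSRP siRNA (horizontal axes), with points joined by the replicate number of the series matrix, bars at the group mean and whiskers for the SD (n = 4). Lines slope up in 4 of 4 pairs for CDH1, CDH3, SNAI1 and TWIST1 and down in 4 of 4 for both ZEB1 and both CDH2 probes, and SNAI2, CDH2 and VIM spread widely in each group. The share of all tested probes that run one way in 4 of 4 pairs was not determined. With the numbers of the scanner files only CDH1 would run one way in 4 of 4 pairs.

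**Figure D3:**
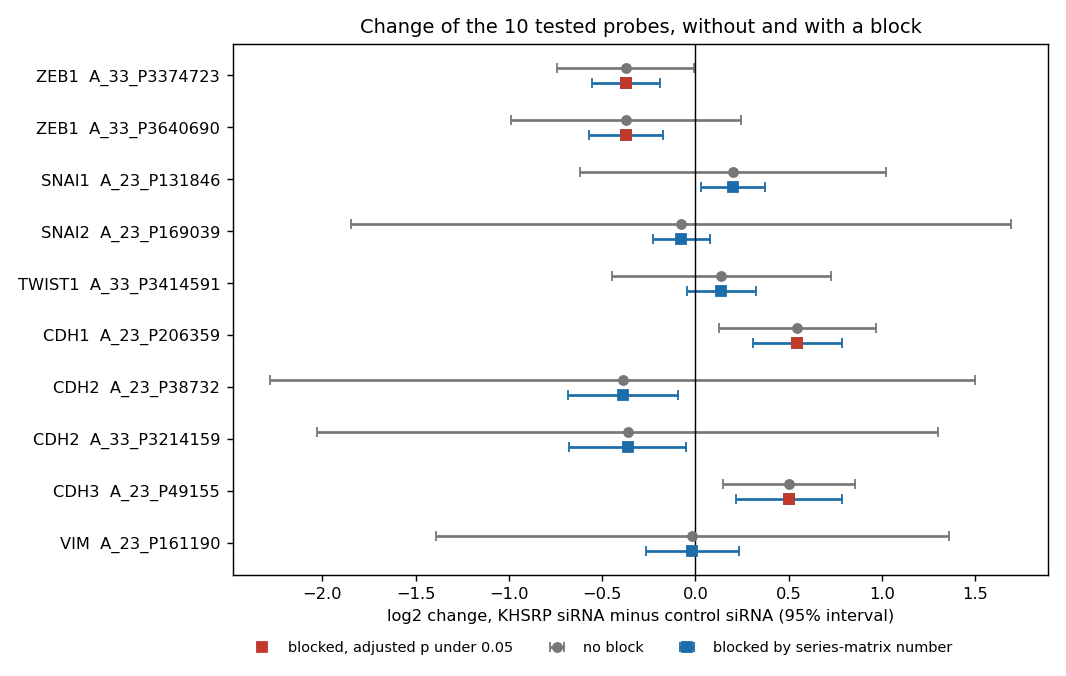
Log2 change with KHSRP siRNA (horizontal axis, KHSRP minus control siRNA) of the 10 tested probes (vertical axis) with 95% intervals, from the fit without a block (gray) and with the matrix-numbered block (blue, red where the adjusted p was under 0.05). Without a block no member was called, and the interval of CDH2 A_23_P38732 ran from -2.28 to 1.50, against -0.69 to -0.10 with the block.

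Not tested for want of signal were 4 probes. The ZEB2 probe A_23_P142560 reached well above background on no array, and A_33_P3243832 on 3, namely control arrays 3 and 4 and KHSRP siRNA array 4. The second TWIST1 probe, A_23_P71073, was not well above background on any of the 8 arrays, so TWIST1 rests on its single-spot probe. FN1, a fibronectin probe with 2 spots per array, had 1 spot well above background on control arrays 1 and 3 and on KHSRP siRNA array 1 and none on the other 5. Its levels were -3.10, -4.08, -2.99 and -4.63 in controls and -3.48, -4.68, -4.85 and -3.77 after KHSRP siRNA. The 2 spots disagreed on KHSRP siRNA arrays 1 and 4, with an SD of 1.71 and 1.11. These FN1 levels were highest on the same 4 arrays as VIM, but most were not well above background, and no fold is given.

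Genes that work beside the members were examined in 9 lists of 201 genes. A single probe, the brightest of those tested, stood for each gene. Of the 149 genes tested, 8 were called (5.37%), 2 higher and 6 lower, against 6.19% of all 12123 tested genes (2.14% higher, 4.05% lower), and 27 had an unadjusted p under 0.05. Their median change was 0.03, and that of all tested genes 0.0058. With the matrix-numbered block 52 were called (34.9%, 29 higher and 23 lower), against 33% of all genes (15.9% higher, 17% lower). Of the 149, 35 deviated with the sign of VIM on all 8 arrays and 37 with the opposite sign, where 14.3% and 20.7% of all tested genes did.

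Other EMT transcription factors numbered 18 tested, with a median of 0.10 and 1 called. TEAD1, a DNA-binding partner of YAP1 and WWTR1, was lower, with a log2 change of -0.92 (SE 0.22, adjusted p = 0.0476), with 3.04 to 3.78 in controls and 2.13 to 2.85 after KHSRP siRNA. Without any 1 of 7 of the 8 arrays it was no longer called, and it stayed called only without KHSRP siRNA array 3. ID2, an inhibitor of bHLH factors, had a difference of -1.57 and varied widely between arrays (SE 0.54, adjusted p = 0.146). The matrix-numbered block called it (adjusted p = 0.0021), and its second probe, at -1.70, likewise (adjusted p = 0.185 without and 0.0043 with the block). Of the 18, 5 deviated with VIM on all 8 arrays and 8 against it, and 7 were called with that block.

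Regulators of the epithelial state, such as the GRHL, OVOL and ESRP factors, gave 10 tested genes with a median of -0.04 and 1 called. KLF4, a factor of differentiating squamous epithelium, was higher by 0.58 (SE 0.14, adjusted p = 0.0452), a call that was likewise lost without any 1 of 7 arrays and kept only without KHSRP siRNA array 3. EHF, an epithelial ETS factor, had a difference of -0.87 (adjusted p = 0.0772). It was well above background on 4 control arrays but on 3 of the 4 KHSRP siRNA arrays. EHF thus entered the test only through the control group, where it was higher. With the matrix-numbered block 4 of the 10 genes were called, EHF among them (adjusted p = 0.0144). Given how EHF entered the test, that call is no support for a change.

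No further cadherin, catenin or nectin was called without a block. Of 5 other cadherins tested none was called by limma, and none had an unadjusted p under 0.05. CDH15 differed by -0.26 (adjusted p = 0.537) and CDH11, a cadherin of mesenchymal cells, by -0.86 (adjusted p = 0.602). CDH11 shared the array order of VIM and spanned 10.9-fold, and with the matrix-numbered block it was called (adjusted p = 0.0021). Of 12 catenins and nectins none was called by limma, and 1 had an unadjusted p under 0.05. The differences were 0.28 for JUP (plakoglobin, adjusted p = 0.248) and 0.23 for CTNNB1 (beta-catenin, adjusted p = 0.377), which bind the cadherin tail, and a second CTNNB1 probe gave 0.045 (adjusted p = 0.946). With the matrix-numbered block 3 of the 12 were called, neither JUP (adjusted p = 0.0561) nor CTNNB1 (adjusted p = 0.0514) among them.

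Among 27 epithelial junction and polarity genes (median 0.10), 1 was higher and 1 lower. TJP1 (ZO-1, a tight junction scaffold) was lower, with a log2 change of -0.81 (SE 0.11, adjusted p = 0.0067), at 1.38 to 1.70 in controls and 0.68 to 0.90 after KHSRP siRNA. MAL2, a membrane trafficking protein of polarized cells, was higher by 0.67 (SE 0.14, adjusted p = 0.0267), and this call was lost without any 1 of 6 arrays and kept only without control array 4 or KHSRP siRNA array 4. MAL2 is also among the genes that the study had picked from these arrays, so its direction is not independent evidence. Of the 27, 12 deviated against VIM on all 8 arrays and 5 with it, and the matrix-numbered block called 11.

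Among 26 mesenchymal and matrix genes (median 0.03) 1 was called, and 11 followed VIM on all 8 arrays against 4 that opposed it. MMP9, a secreted gelatinase, was lower, with a log2 change of -1.16 (SE 0.18, adjusted p = 0.0090), at -1.68 to -1.05 in controls and -2.79 to -2.31 after KHSRP siRNA, where it was well above background on 3 of 4 arrays. MMP9 thus entered the test through the control group, where it was higher, and with a filter of all 8 arrays it was not tested and 7 list genes were called. COL5A2, a fibrillar collagen chain that the study had also picked, had a difference of 0.70 (adjusted p = 0.0659, and 0.0084 with the matrix-numbered block, which called 9 of the 26 genes).

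Of 27 cofactors and turnover factors of SNAIL and ZEB proteins (median -0.04), 2 were called, both lower. EZH2, the histone methyltransferase of the Polycomb repressive complex 2, was lower, with a log2 change of -1.28 (SE 0.22, adjusted p = 0.0127), at 2.40 to 2.99 in controls and 1.13 to 1.97 after KHSRP siRNA. LIMD1, an Ajuba-family LIM protein, was lower, with a log2 change of -0.98 (SE 0.13, adjusted p = 0.0054). The residual SD of this list was low, with a median of 0.17 against 0.25 over all tested genes, and 0.62 in the list of other EMT transcription factors, and the matrix-numbered block called 8 of the 27.

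Of 10 genes of the TGF-beta pathway, a classical EMT signal, none was called by limma, and 2 had an unadjusted p under 0.05. SMAD3 differed by -0.37 (adjusted p = 0.144) and SMAD2 by 0.52 (adjusted p = 0.218). The matrix-numbered block called 3 of the 10, SMAD3 (adjusted p = 0.0144) but not SMAD2 (adjusted p = 0.0742) among them. Of 16 partners of vimentin and fibronectin (median -0.03) 1 was called. ITGB1, the beta-1 subunit of the fibronectin-binding integrins, was lower, with a log2 change of -2.19 (SE 0.11, adjusted p = 8.7e-05), at 1.88 to 2.12 in controls and -0.37 to -0.11 after KHSRP siRNA. TGM2, a transglutaminase that binds fibronectin, had a difference of -0.88 (adjusted p = 0.0741, and 0.0137 with the matrix-numbered block, which called 7 of the 16 genes). The dimmer TGM2 probe gave -0.32 (adjusted p = 0.752, and 0.483 with that block), so it was not called either way.

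**Figure D4:**
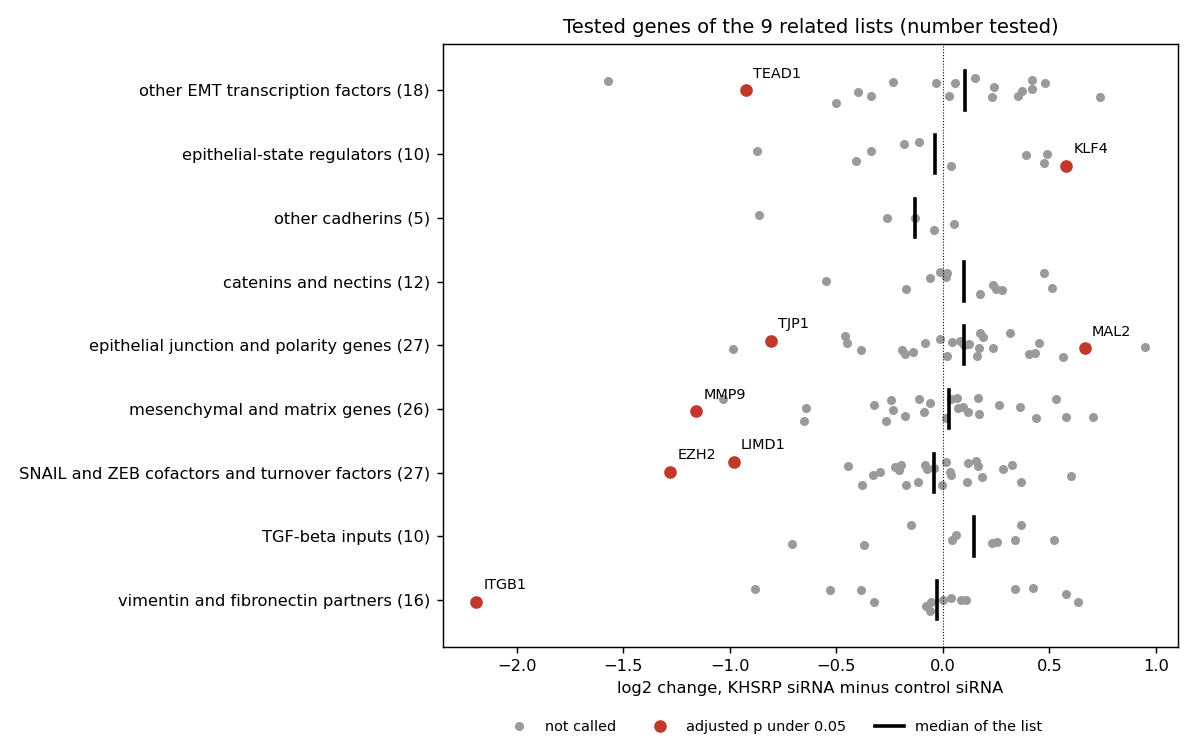
Log2 change with KHSRP siRNA (horizontal axis) of the 149 tested genes in the 9 related lists (vertical axis, number tested in parentheses; ITGA5 and ITGAV stand in 2 lists), with the list median as a bar and genes at an adjusted p under 0.05 in red. The medians lie between -0.13 and 0.15, and 8 genes are red, 6 of them lower, with ITGB1 at -2.19.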

How the data were processed

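Messenger RNA was measured in 4 control siRNA and 4 KHSRP siRNA samples, which the labels placed in these groups. The authors extracted each array with Agilent Feature Extraction (11.5.1.1 per the file headers, 12.6 per the labels), and the deposited processed signals are linear fluorescence intensity, background-subtracted but not scaled between arrays. The authors also deposited a series matrix of log2 values, used as an alternative. Its columns for KHSRP siRNA replicates 3 and 4 are exchanged relative to the scanner files, and arrays are numbered here as in the scanner files. The number of arrays limits the precision.

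Control spots and outlier spots (265 to 346 per array) were dropped, log2 signals were averaged per probe, and the 75th percentile of the array was subtracted. Testing required a share of 0.5 or more of the spots of a probe well above background on all 4 arrays of either group, which kept 18761 of 42405 probes. Symbols came from RefSeq records (27237 probes, 64.2%; 1065 more with a RefSeq record had no symbol). Changes with KHSRP siRNA were fitted per probe in limma 3.58.1 under R 4.3.3 (lmFit and eBayes, two-sided, without a block), p-values were adjusted by Benjamini-Hochberg over the whole table, and called means an adjusted p under 0.05. The fit without a block was tested on simulated data drawn independently for each probe and array. Those data lacked the variation that arrays share here, so they say nothing of error rates under it. Other steps used Python 3.11.15.

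The members and lists were chosen with earlier results of these data known. Named were all members, KHSRP and, in each list, up to 4 called genes by size or, where fewer than 2 were called, the 2 with the smallest unadjusted p. The series-matrix numbers were taken to pair the arrays because every pair correlated above 0.1, and each array correlated best with its own number (other combinations reached 0.424 at most). These correlations come from the tested arrays themselves, so the blocked p-values are not independent of the choice. Slides held replicates 1 and 2 (slide 1) or 3 and 4 (slide 2) of both groups. Alternatives covered scaling, background, filter, block, variance model, test and each array left out. OVOL2, FBXO45 and CSNK1E had no probe with their symbol.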

Additional observations from a re-analysis of the deposited data

Results flagged for a closer look

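In 4 of the 68 groups of 4 arrays examined, a single array lay far from the other 3, where chance gives about 1 in 20. The brighter ZEB1 probe was high on control array 3 (1.75, next 1.36). The dimmer KHSRP probe was low on control array 2 (-1.86, next -1.10), and it was well above background on no KHSRP siRNA array. ITGB1 was low on KHSRP siRNA array 4 (-0.37, next -0.14), and TJP1 was high on the same array (0.90, next 0.71).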

How the results depend on the processing

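Over 21 alternatives, 189 of 210 changes of member probes kept their direction and side of the threshold. A replicate block with the numbers of the series matrix gave the 4 calls of member probes (ZEB1 -0.37 with each probe, adjusted p = 0.0161 and 0.0214, CDH1 0.55 with 0.0116, CDH3 0.50 with 0.0254), 5644 calls over all probes and 52 among list genes. With a replicate block by the scanner file numbers no member probe was called, and the counts were 156 probes and 2 list genes. The number of calls over all probes, 1039 (34.6% of them higher), was 570 with median scaling (17.2% higher) and 319 without a filter on dim probes, where 4 list genes were called. VIM turned to 0.00998 with quantile normalization and to 0.0039 with the percentile of detected probes. With each array left out in turn, the change was -0.023 to 0.44 for SNAI1 (reversed without control array 3), -0.59 to 0.45 for SNAI2, -0.0022 to 0.32 for TWIST1, -0.996 to 0.15 and -0.83 to 0.17 for the CDH2 probes and -0.40 to 0.40 for VIM. SNAI2 and VIM reversed without control array 1 or 3 or KHSRP siRNA array 2 or 3, both CDH2 probes without control array 3 or KHSRP siRNA array 3, and TWIST1 without control array 1 or KHSRP siRNA array 3. The range was 0.41 to 0.63 for CDH1, 0.43 to 0.60 for CDH3, and -0.48 to -0.27 and -0.55 to -0.20 for ZEB1, with 489 to 766 calls over all probes and 5 to 8 among list genes. For ZEB2, FN1 and the dimmer TWIST1 probe the signal over background limits any statement. The cause of these differences was not tested.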
